A study of Homo sapiens with 9 samples.

Results

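The genes described here are GLUL, which encodes glutamine synthetase, and 8 genes of glutamine breakdown, linked amino acid synthesis and amino acid uptake, namely GLUD1, GOT1, ASNS, PHGDH, PSAT1, SLC1A5, SLC38A2 and SLC7A5. They were selected by symbol from 61155 gene symbols, and the set was put together around the level of GLUL, which nearly disappears in one FBXL12 knockout clone and rises in the other. The 9 members were matched by symbol, and 8 of them passed a filter on low counts that left 17759 genes in all; PHGDH did not. The cells are MDA-MB-231, a long-established human basal-like breast cancer line, and their RNA was sequenced in 9 libraries. The groups are 2 FBXL12-KO clones, called KO1 and KO2, with 3 libraries each, and FBXL12-WT cells carrying a scrambled guide RNA, called WT, with 3 libraries. Each KO group is 1 clone, and no treatment or time point is named for any group. Whether the libraries of a group stem from separate cultures is not stated, and the spread behind each p-value may therefore be technical only.

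Glutamine synthetase joins ammonia to glutamate and so makes glutamine inside the cell. Cells that make little of it depend on amino acid transporters for their glutamine, and they spend it on nucleotides, amino sugars, asparagine and glutamate. Glutamate in turn gives its nitrogen to serine and aspartate or its carbon to the citric acid cycle, and breast cancer lines are known to differ widely in how far they use each of these routes.

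Total counts ran from 52427841 to 97243363 per library. FBXL12 itself was at 9.64 ± 0.282 CPM in KO1 and 5.94 ± 0.542 CPM in KO2, against 22.3 ± 0.999 CPM in WT (SD, n = 3 each; CPM are counts relative to the TMM-scaled library total). The 7 markers of the line's mesenchymal state, VIM and CD44 among them, summed to at least 6540 CPM in each library. The lowest of the 7 was S100A4, with means of 9.51 CPM in KO1, 3.25 CPM in KO2 and 11.4 CPM in WT. The 5 leukocyte markers were each under 1 CPM in every library, with sums of 0.544 to 1.07 CPM in KO1, 0.631 to 0.683 CPM in KO2 and 0.428 to 0.6 CPM in WT. Sums of the 5 fibroblast markers ran from 4.34 to 5.08 CPM in KO1, from 4.04 to 4.76 CPM in KO2 and from 4.53 to 5.82 CPM in WT. The 4 endothelial markers summed to between 21.7 and 22.4 CPM in KO1, 19 and 21.5 CPM in KO2, and 14.7 and 15.6 CPM in WT, nearly all of it from KDR, the only one of the 4 that reached 1 CPM in a library. The 7 luminal markers summed to between 719 and 819 CPM in KO1, 759 and 815 CPM in KO2, and 840 and 950 CPM in WT, almost wholly from the keratin genes KRT8 and KRT18; PGR was at 0 in each library.

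GLUL (ENSG00000135821.18; chromosome 1, 182381704 to 182392206, minus strand, GRCh38) was low in WT, lower in KO1 and high in KO2. It had 4, 11 and 17 counts in KO1 and 684, 812 and 691 counts in KO2, against 87, 46 and 46 counts in WT. In CPM these were 0.0513, 0.139 and 0.195 in KO1, 13.1, 12.3 and 10.9 in KO2, and 0.884, 0.757 and 0.731 in WT. All KO1 libraries lay below, and all KO2 libraries above, every WT library, so the order KO2, WT, KO1 had no overlap between neighbours. The means were 0.128 ± 0.0724 CPM in KO1, 12.1 ± 1.11 CPM in KO2 and 0.791 ± 0.0822 CPM in WT (SD, n = 3 each). KO1 was thus at 16.2% of WT, KO2 was 15.3-fold above WT, and KO2 was 94.2-fold above KO1. The fitted log2 changes were -2.60 for KO1 against WT, 3.92 for KO2 against WT and -6.51 for KO1 against KO2. These values chose the gene, so they are given as a description with no test. With single libraries left out, the log2 change of KO1 against WT ran from -3.03 to -2.22, that of KO2 against WT from 3.85 to 4.02, and that of KO1 against KO2 from -6.95 to -6.14. In bulk RNA, fewer cells with the transcript and less of it per cell cannot be told apart.

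**Figure D1:**
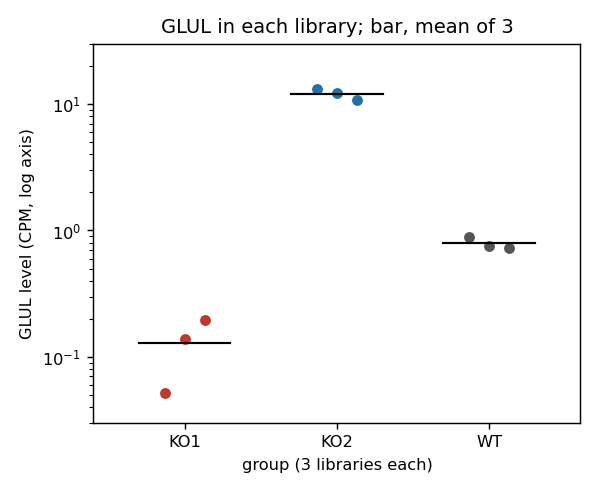
GLUL level in CPM on a log axis for each library (points) of KO1, KO2 and WT, with the mean of 3 libraries as a bar. The KO1 libraries lie between 0.0513 and 0.195 CPM, the KO2 libraries between 10.9 and 13.1 CPM and the WT libraries between 0.731 and 0.884 CPM.

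No other annotated gene shares exon bases with GLUL in GENCODE 29. The 4 processed copies of GLUL listed in the tables, GLULP3 to GLULP6 by name, had 0 counts in every library. How reads that match both GLUL and a copy were counted is not stated, so its level carries that uncertainty.

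The promoter windows shown are those of GLUL, whose level differs most among the members, and of ASNS and GOT1, in which a motif of the amino acid response was found. Each runs from 250 bases before to 50 bases after the transcription start and is read 5′ to 3′ on the minus strand (RefSeq, GRCh38.p14). All 9 members matched this table, with 13 windows. Capitals mark TGATGNAA, or its reverse complement, the composite element bound by ATF4 and its partners; it was sought on both strands. GLUL lies at chr1:182391741-182392040, ASNS at chr7:97872359-97872658 and GOT1 at chr10:99430575-99430874.
GLUL: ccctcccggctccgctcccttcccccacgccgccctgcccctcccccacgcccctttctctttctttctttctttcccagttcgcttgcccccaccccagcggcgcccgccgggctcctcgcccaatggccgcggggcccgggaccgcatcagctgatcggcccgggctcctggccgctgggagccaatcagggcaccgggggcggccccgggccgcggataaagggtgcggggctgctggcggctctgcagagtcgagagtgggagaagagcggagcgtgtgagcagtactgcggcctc
ASNS: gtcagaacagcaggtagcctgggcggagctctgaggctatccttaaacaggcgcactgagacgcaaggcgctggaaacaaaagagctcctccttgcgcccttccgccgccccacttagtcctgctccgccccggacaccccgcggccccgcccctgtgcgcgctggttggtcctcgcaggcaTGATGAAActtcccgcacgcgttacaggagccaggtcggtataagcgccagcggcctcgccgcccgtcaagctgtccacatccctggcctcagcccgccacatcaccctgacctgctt
GOT1: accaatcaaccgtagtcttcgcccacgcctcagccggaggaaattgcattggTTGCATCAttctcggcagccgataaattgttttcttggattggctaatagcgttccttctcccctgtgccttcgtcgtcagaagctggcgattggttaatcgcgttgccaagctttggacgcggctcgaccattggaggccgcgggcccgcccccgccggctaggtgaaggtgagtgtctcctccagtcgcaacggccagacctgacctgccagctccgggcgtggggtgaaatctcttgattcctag
The match in ASNS begins 68 bases before the start, and that in GOT1, on the opposite strand, 198 bases before it. One further match was in the window of an alternative start of SLC1A5, at 97 bases before that start. Neither GLUL window held these letters, nor the E-box letters CACGTG. The E-box letters were in the SLC7A5 window and in another window of SLC1A5, and did not overlap the first motif. Of all 35116 promoters of this length, 3.62% held the first motif and 7.26% the E-box. A match is a description of the sequence and not evidence of a bound factor.

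Among the 7 other tested members, 1 was called higher and 1 lower in KO1 against WT, and 2 higher and 4 lower in KO2 against WT. A gene was called at an adjusted p under 0.05 in edgeR's quasi-likelihood test over all 17759 genes. Over all tested genes 34.8% were called in KO1 and 49.4% in KO2. Between the clones 1 member was higher and 1 lower in KO1 than in KO2, where 48.9% of all genes were called. Since the set was formed around values of these same comparisons, its share of calls is not read against those shares. Errors of log2 changes below are standard errors, and adjusted p-values come from this test.

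Of the 2 enzymes that break glutamate down or move its nitrogen, GOT1 rose in KO2 and GLUD1 did not pass the test against WT in either clone. GLUD1, the mitochondrial glutamate dehydrogenase that releases ammonia and feeds carbon to the citric acid cycle, was at 304, 321 and 318 CPM in KO1, at 334, 331 and 346 CPM in KO2, and at 325, 318 and 339 CPM in WT. Its libraries overlapped between each clone and WT. The log2 change was -0.06 ± 0.04 in KO1 (95% interval -0.14 to 0.03; adjusted p = 0.285). For KO2 it was 0.04 ± 0.04, with an interval of -0.04 to 0.13 (adjusted p = 0.42). With the GC trend removed GLUD1 was called lower in KO1, at -0.09 (adjusted p = 0.0133). Between the clones its difference of -0.10 ± 0.04 missed the threshold (adjusted p = 0.0514), but passed it with upper quartile scaling (-0.13), a minimum of 1 CPM in 3 libraries (-0.11), a replicate block (-0.10) or the GC trend removed (-0.10), at adjusted p of 0.00543 to 0.0471. GOT1, the cytosolic aspartate aminotransferase, was at 95.8, 98 and 95.3 CPM in KO1, 128, 129 and 126 CPM in KO2, and 104, 103 and 103 CPM in WT. The 3 groups did not overlap, with KO2 highest and KO1 lowest. GOT1 rose in KO2 by 0.30 ± 0.04 on the log2 scale (adjusted p = 8.45e-06), while its change in KO1, -0.10 ± 0.04, did not pass the threshold (adjusted p = 0.0555), except without KO2 replicate 3 (-0.11) or with a minimum of 1 CPM in 3 libraries (-0.10). The clones differed by -0.40 ± 0.04 for KO1 against KO2 (adjusted p = 3.19e-07). GLUD1 has close copies, of which GLUD2 had 28 to 69 counts and the pseudogene GLUD1P3 47 to 88 counts per library, and reads shared with them make its level uncertain. In GOT1, 19.3% of the exon bases lie under an antisense RNA, AL391684.1, that had at most 154 counts in a library.

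PSAT1, PHGDH and ASNS represent the synthesis of serine and asparagine. PSAT1, which takes nitrogen from glutamate in the second step of serine synthesis, was at 334, 349 and 343 CPM in KO1, 352, 348 and 353 CPM in KO2, and 334, 328 and 321 CPM in WT. All KO2 libraries were above all WT libraries, but by little. PSAT1 rose in KO2 by 0.10 ± 0.04 (adjusted p = 0.0304), and its change in KO1 was 0.06 ± 0.04 (adjusted p = 0.214). That call in KO2 was lost when WT replicate 2 (0.10) or WT replicate 3 (0.09) was left out, likewise KO1 replicate 3 (0.10) or any 1 of the KO2 libraries (replicate 1 0.09, replicate 2 0.10, replicate 3 0.09), with adjusted p from 0.0502 to 0.118, and also with the GC trend removed (0.05) or with no filter (0.09).

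PHGDH, the enzyme of the first step of serine synthesis, was barely detected. It had 1, 6 and 0 counts in KO1, 0, 3 and 2 counts in KO2, and 13, 12 and 9 counts in WT. Every clone library was below every WT library, at levels where 0 counts still allow 3 (counting error only). With no filter on low counts, edgeR's test gave log2 changes of -2.36 ± 0.80 in KO1 (adjusted p = 0.0199) and -2.46 ± 0.85 in KO2 (adjusted p = 0.0166); these rest on 7 counts in KO1 and 5 counts in KO2, against 34 counts in WT.

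ASNS, which makes asparagine with the amide nitrogen of glutamine, was also near the lower limit of the tables. It had 28, 31 and 29 counts in KO1, 20, 18 and 12 counts in KO2, and 49, 43 and 40 counts in WT. The levels were 0.361 ± 0.03 CPM in KO1, 0.282 ± 0.097 CPM in KO2 and 0.614 ± 0.106 CPM in WT (SD, n = 3 each), and both clones lay below WT without overlap. ASNS fell in KO2 by 1.12 ± 0.30 on the log2 scale (adjusted p = 0.00567). The change in KO1, -0.75 ± 0.28, passed the threshold narrowly (adjusted p = 0.0475). It no longer did so when WT replicate 2 (-0.62) or WT replicate 3 (-0.70) was left out, nor without any 1 of the KO1 libraries (replicate 1 -0.73, replicate 2 -0.81, replicate 3 -0.68) or KO2 replicate 2 (-0.74), nor with a replicate block (-0.75), DESeq2 (-0.75) or no filter (-0.74). KO1 and KO2 did not differ past the threshold (0.38 ± 0.31, interval -0.29 to 1.04, adjusted p = 0.343).

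In GENCODE 29 a noncoding gene on the same strand, AC079781.5, shares exon bases with 84.3% of the longest coding ASNS transcript, and how reads in shared exons were counted is not stated. AC079781.5 had 131, 150 and 122 counts in KO1, 55, 58 and 69 counts in KO2, and 150, 71 and 71 counts in WT. It was not called in KO1 (0.36 ± 0.17, adjusted p = 0.118) or in KO2 (-0.36 ± 0.19, adjusted p = 0.126), but it was higher in KO1 than in KO2 (0.72 ± 0.18, adjusted p = 0.00376). The 2 genes together came to 2.04, 2.29 and 1.73 CPM in KO1, 1.43, 1.15 and 1.28 CPM in KO2, and 2.02, 1.88 and 1.76 CPM in WT. In that sum every KO2 library lay below every WT library, and KO1 overlapped with WT. Reads left uncounted in the shared exons are in neither value.

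**Figure D2:**
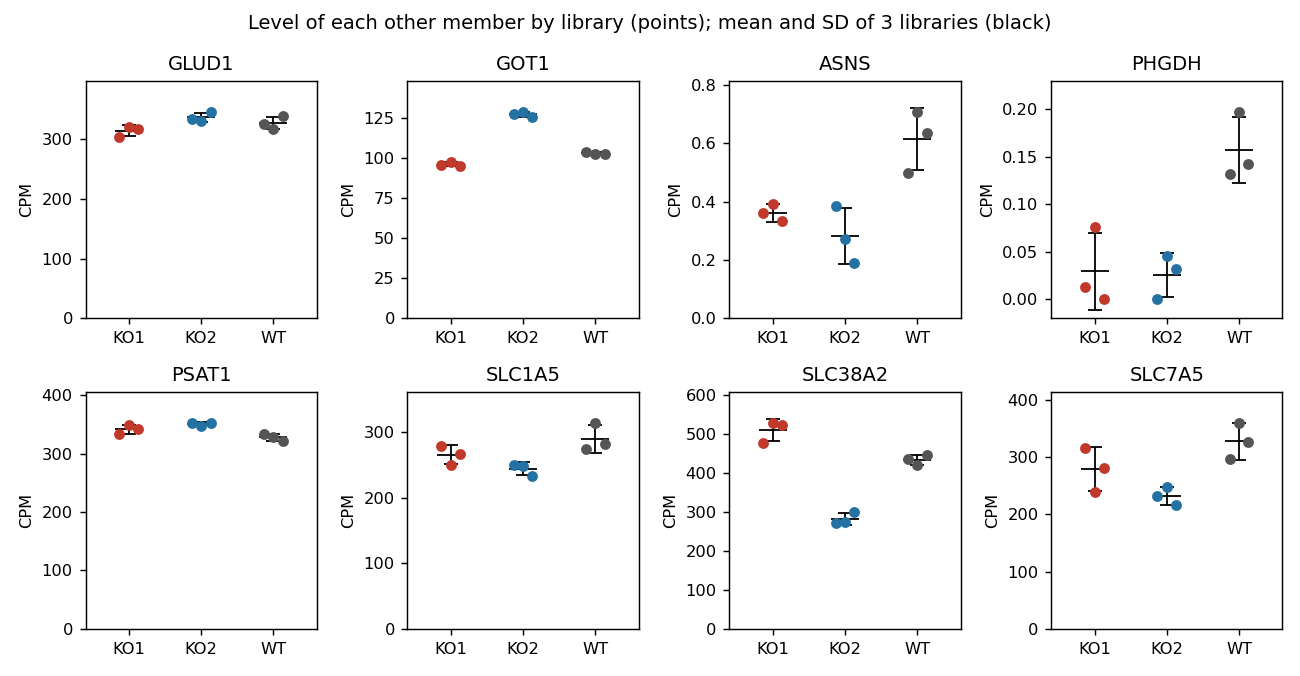
Level in CPM of the 8 other members in each library (points) of KO1, KO2 and WT, with the mean and SD of 3 libraries in black; each axis has its own scale. GOT1 is highest in KO2 and SLC38A2 lowest there, while ASNS and PHGDH are under 1 CPM in every library.

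The 3 uptake genes were called lower in KO2, SLC1A5 only as long as the GC trend was not removed (0.05 with it removed), and SLC38A2 was higher in KO1. SLC38A2, a sodium-coupled carrier of glutamine and alanine also known as SNAT2, was at 477, 529 and 522 CPM in KO1, 271, 274 and 299 CPM in KO2, and 435, 421 and 445 CPM in WT. The 3 groups did not overlap, and the order KO1, WT, KO2 is the reverse of that of GLUL and GOT1. SLC38A2 rose in KO1 by 0.23 ± 0.05 (adjusted p = 0.00176) and fell in KO2 by 0.62 ± 0.05 (adjusted p = 6.1e-08). The clones differed by 0.86 ± 0.05 for KO1 against KO2 (adjusted p = 1.24e-09), and each of these calls held in all 17 alternatives.

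SLC1A5, the neutral amino acid exchanger ASCT2 that carries glutamine, was at 280, 251 and 267 CPM in KO1, 251, 249 and 233 CPM in KO2, and 275, 315 and 282 CPM in WT. KO2 lay below WT without overlap, and KO1 overlapped with WT. The log2 change was -0.13 ± 0.06 in KO1 (adjusted p = 0.0898) and -0.25 ± 0.06 in KO2 (adjusted p = 0.0016). SLC1A5 is rich in G and C (61.3% of its longest transcript), and removal of each library's GC trend turned both values round, to 0.13 in KO1 (adjusted p = 0.00777) and 0.05 in KO2 (adjusted p = 0.232). The direction of its change thus depends on that setting. SLC7A5, the exchanger LAT1 that brings in leucine against glutamine, was at 316, 239 and 281 CPM in KO1, 232, 247 and 216 CPM in KO2, and 296, 360 and 326 CPM in WT. Again KO2 lay below WT and KO1 overlapped with it. SLC7A5 fell in KO2 by 0.50 ± 0.11 (adjusted p = 0.00675), and its change in KO1 was -0.23 ± 0.11 (adjusted p = 0.15). It has 61.1% G and C, and after removal of the GC trend its call in KO2 held at -0.20 (adjusted p = 1.14e-05), while KO1 came to 0.01. In KO1 it passed the threshold without KO1 replicate 1 (-0.32) and with DESeq2 (-0.23). KO1 and KO2 did not differ past the threshold for SLC1A5 (0.12 ± 0.06, interval 0.00 to 0.24, adjusted p = 0.0794) or SLC7A5 (0.26 ± 0.11, interval 0.01 to 0.52, adjusted p = 0.0862); without KO1 replicate 2 both did, at 0.18 and 0.38, and SLC1A5 also did without WT replicate 2, at 0.13. SLC1A5 further passed with no filter or with the 2 clones alone in the fit (0.14 each), and SLC7A5 with the GC trend removed (0.21, adjusted p = 5.82e-06) or with DESeq2 (0.27, adjusted p = 0.00984).

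**Figure D3:**
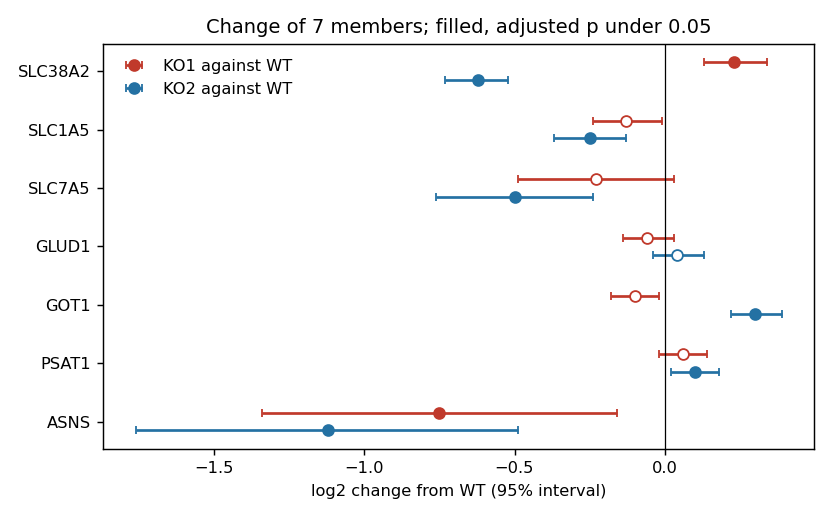
Log2 change from WT of the 7 other tested members with 95% intervals, KO1 in red and KO2 in blue; filled points passed an adjusted p of 0.05. SLC38A2 rises in KO1 (0.23) and falls in KO2 (-0.62), and GOT1 rises in KO2 (0.30).

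Levels were compared between members per length, as CPM over the exon length in kilobases (RPKM). In WT, PSAT1 was highest at 150 ± 2.9 RPKM, followed by GLUD1 at 93 ± 2.94, SLC1A5 at 87.2 ± 6.5, SLC7A5 at 68.9 ± 6.77, SLC38A2 at 65.7 ± 1.8 and GOT1 at 30.7 ± 0.138 RPKM (SD, n = 3 each). The neighbouring pairs GLUD1 and SLC1A5, and SLC7A5 and SLC38A2, overlapped in that order. ASNS was at 0.138 ± 0.0239, GLUL at 0.0875 ± 0.0091 and PHGDH at 0.0171 ± 0.00379 RPKM. How reads in the exons that ASNS shares with AC079781.5 were counted is not stated, so the place of ASNS in this order is uncertain. Even in KO2 GLUL reached only 1.34 ± 0.123 RPKM, below GOT1 and the transporters in every library. The exon length joins all annotated transcripts, 9032 bases for GLUL, which lowers the value of genes with many transcripts.

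The 5 genes whose log2 CPM followed GLUL most closely over the 9 libraries were LYPD6 (Pearson's r = 0.998), PYGL (0.997), AOX1 (0.9931), VPS45 (0.9931) and NDUFA4 (0.9919), out of 11641 genes whose log2 CPM averaged 1 or more. The libraries fall into 3 groups, so these values mostly follow the 3 group means, and they are a description. All 5 had KO2 highest and KO1 lowest, an order that follows from their choice by likeness to GLUL, over a much narrower range than GLUL. LYPD6 was at 6.01 ± 0.516 CPM in KO1 and 13.6 ± 0.261 CPM in KO2, against 8.27 ± 0.282 CPM in WT. PYGL, the liver form of glycogen phosphorylase, was at 72.9 ± 2.57 CPM in KO1 and 111 ± 2.09 CPM in KO2, against 86.8 ± 0.812 CPM in WT. Among the members themselves, GOT1 had r = 0.97 with GLUL and SLC38A2 r = -0.95.

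Position along the chromosome was not used in choosing the genes. The neighbours of a gene are here the nearest 10 tested genes on each side, 20 in all. Those of GLUL spanned 3.58 Mb of chromosome 1 and did not move as GLUL did. In KO1 they had a median log2 change of 0.12, with 8 higher and 2 lower. The median in KO2 was 0.08, with 8 higher and 1 lower. Over all tested genes the medians were 0.00 and -0.01, with 34.8% called in KO1 and 49.4% in KO2. By direction, 18% of all tested genes were higher and 16.8% lower in KO1, and 24.7% were higher and 24.7% lower in KO2. Named after their values were seen, NPL, an enzyme that breaks down sialic acid, rose by 0.96 in KO1 and 0.88 in KO2, and RGS16, a regulator of G protein signalling, rose by 1.30 in KO1 and was at -0.22 in KO2, where it was not called. The lowest change among the 20 was -0.29 in KO1, for QSOX1, and -0.49 in KO2, for LAMC1-AS1, which was not called.

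**Figure D4:**
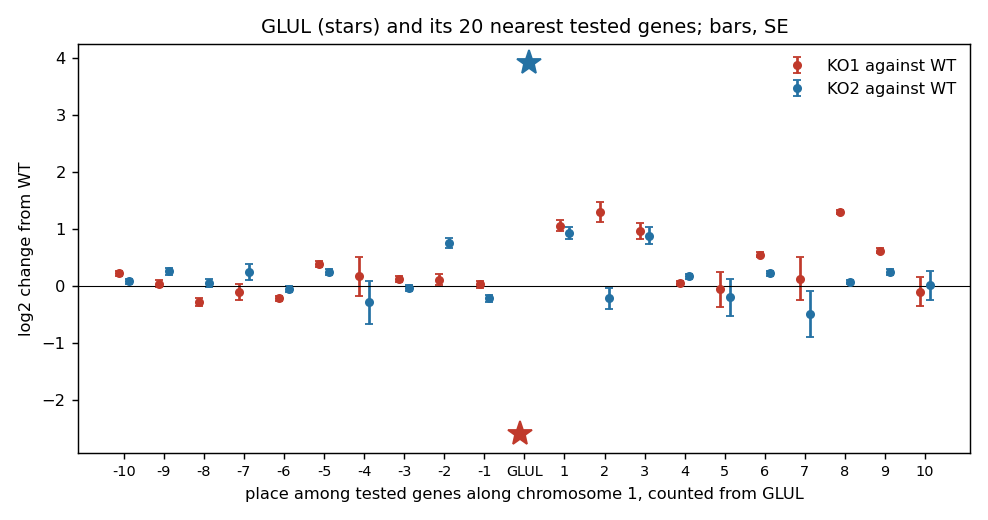
Log2 change from WT of GLUL (stars) and of the nearest 10 tested genes on each side of it (points with standard errors) in their order along chromosome 1, KO1 in red and KO2 in blue. GLUL lies at -2.60 in KO1 and 3.92 in KO2, outside the range of its neighbours, which runs from -0.49 to 1.30.

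The neighbours of the other members are read beside all tested genes, of which 18% were higher and 16.8% lower in KO1, and 24.7% were higher and 24.7% lower in KO2. Of the 20 genes around PSAT1, 14 were higher and 1 lower in KO2, with a median of 0.53, while PSAT1 was at 0.10. Around SLC7A5, 1 was higher and 11 lower in KO2 (median -0.27), beside -0.50 for SLC7A5. Around GOT1, 10 were higher and 4 lower in KO2 (median 0.21), beside 0.30 for GOT1. Around GLUD1, 1 was higher and 5 lower in KO1 (median -0.27), beside -0.06 for GLUD1. In KO2 9 of its neighbours were higher and 0 lower (median 0.16), beside 0.04 for GLUD1. With both directions counted together, the neighbours of GLUD1 called are no larger a share than the 34.8% and 49.4% of all tested genes in KO1 and KO2. Around PSAT1, SLC7A5 and GOT1 the share called in KO2 was larger than that 49.4%. The neighbours of SLC38A2 had medians of 0.03 and 0.00 in KO1 and KO2. The part of the neighbourhoods in the members' own changes was not tested.

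The other genes of these pathways were read from 5 lists with 107 genes, of which 99 were tested. In KO1 23 of them were higher and 28 lower, and in KO2 27 were higher and 27 lower, which is 51.5% called in KO1 and 54.5% in KO2, beside 34.8% and 49.4% of all tested genes. The share called depends on depth as well as on change, and the lists were not tested against other genes. Their medians in KO1 and KO2 were -0.02 and 0.01.

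Enzymes that make or use glutamine and glutamate split in both clones, with 6 of 24 higher and 8 lower in KO1 (median -0.10) and 8 higher and 6 lower in KO2 (median -0.02). The 2 glutamine:fructose-6-phosphate amidotransferases, which spend glutamine on amino sugars, rose in each clone. GFPT2 was at 50, 49.7 and 51.9 CPM in KO1 and 28, 29.2 and 29.3 CPM in KO2, against 17.4, 17.5 and 18.5 CPM in WT. The 3 groups were well apart, and the log2 changes were 1.51 ± 0.05 in KO1 (adjusted p = 4.07e-11) and 0.70 ± 0.05 in KO2 (adjusted p = 4.42e-08). GFPT1 rose by 0.33 ± 0.05 in KO1 (adjusted p = 0.000134) and by 0.58 ± 0.05 in KO2 (adjusted p = 1.75e-07). GCLM, a subunit of the enzyme that joins glutamate to cysteine for glutathione, rose by 0.79 in KO1 and 1.17 in KO2. ALDH18A1, which starts proline synthesis from glutamate, fell by 0.46 ± 0.04 in KO1 (adjusted p = 3.41e-07) and was at 0.01 in KO2 (adjusted p = 0.911). The count lower in KO1 was 4 without WT replicate 2 and 5 without KO1 replicate 2 or KO1 replicate 3.

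In the list of serine, glycine and other amino acid synthesis, 0 of 12 genes were higher and 7 lower in KO1 (median -0.23), and 3 were higher and 4 lower in KO2 (median 0.07). PSPH, the last step of serine synthesis, fell to 28.5 ± 0.561 CPM in KO1, was at 48.9 ± 1.04 CPM in KO2, and was at 45.4 ± 2.73 CPM in WT (SD, n = 3 each). Its log2 change was -0.67 ± 0.05 in KO1 (adjusted p = 2.43e-07) and 0.11 ± 0.05 in KO2 (adjusted p = 0.112), and the clones differed by -0.78 ± 0.05 (adjusted p = 9.82e-09). CTH, which makes cysteine from cystathionine, fell by 0.75 ± 0.08 in KO2 (adjusted p = 1.2e-06) and was at -0.27 in KO1. ASS1, which joins aspartate to citrulline, rose by 0.61 ± 0.09 in KO2 (adjusted p = 4.3e-05), and the next gene of that path, ASL, fell there by 0.60 ± 0.10 (adjusted p = 0.000126). The count lower in KO1 was 4 without WT replicate 2 or without KO1 replicate 3, and with the GC trend removed ASS1 was called higher, at 0.24.

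Among amino acid transporters 5 of 25 genes were higher and 4 lower in KO1 (median -0.02), and 7 were higher and 7 lower in KO2 (median 0.00). SLC7A11, which brings in cystine in exchange for glutamate, rose by 0.43 ± 0.05 in KO1 (adjusted p = 1.52e-05) and by 0.70 ± 0.05 in KO2 (adjusted p = 2.99e-08). SLC1A4, a close relative of SLC1A5 that carries serine and alanine, rose by 0.33 ± 0.09 in KO1 and by 0.94 ± 0.09 in KO2. SLC7A6 fell by 0.72 ± 0.06 in KO2 (adjusted p = 1.33e-07) and was at -0.01 in KO1. SLC6A14, a broad carrier of neutral and basic amino acids that includes glutamine, had 88, 103 and 117 counts in KO1 and 0 counts in each KO2 library, against 83, 53 and 45 counts in WT. Taking 3 counts per library as the limit that 0 allows, it was at least 16.2-fold lower in KO2 than in WT (adjusted p = 5.44e-08). In KO1 its change was 0.63 ± 0.19 (adjusted p = 0.0211), a call that was lost without WT replicate 3 (0.57), KO1 replicate 2 (0.61) or KO1 replicate 3 (0.60). Named after its values were seen, SLC38A1, a glutamine carrier related to SLC38A2, rose by 0.28 in KO1 (adjusted p = 0.000162) and by 0.15 in KO2 (adjusted p = 0.00969).

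**Figure D5:**
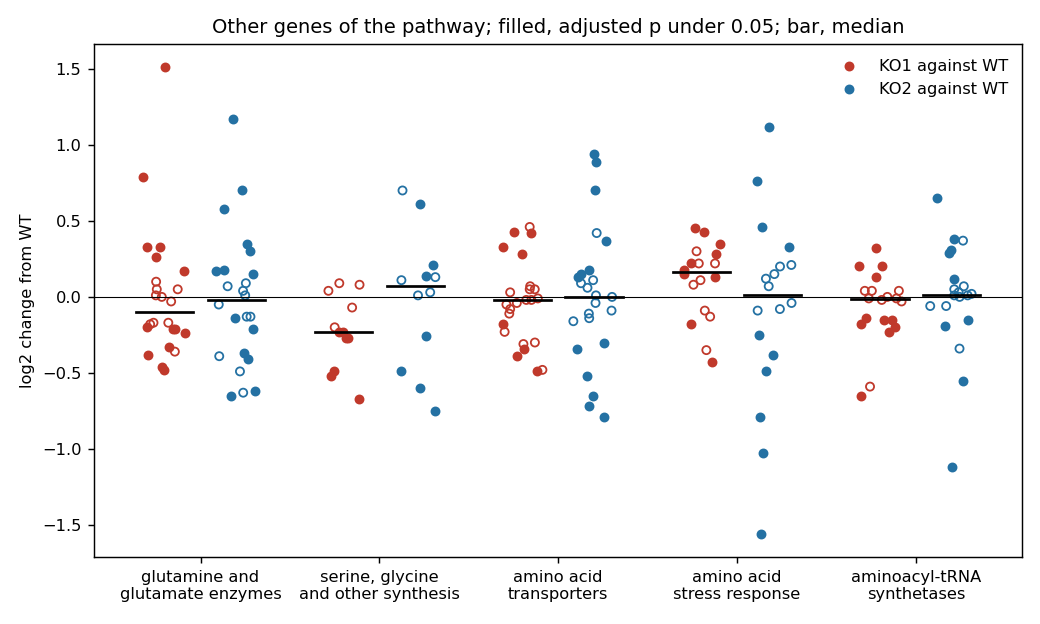
Log2 change from WT of the other pathway genes by list, KO1 in red and KO2 in blue; filled points passed an adjusted p of 0.05 and bars are medians over each list. SLC6A14 counts in the medians but is not drawn because it had 0 counts in KO2; GFPT2 in KO1 is the highest point at 1.51 and DDIT4 in KO2 the lowest at -1.56.

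The list of the amino acid stress response holds the kinases that sense uncharged tRNA or misfolded protein, the factor ATF4 that they switch on, and ATF4 targets. In KO1 8 of 18 genes were higher and 2 lower (median 0.16), and in KO2 4 were higher and 6 lower (median 0.01). Between the clones 9 were higher and 4 lower in KO1 than in KO2 (median 0.10), which is 72.2% called. Over all tested genes 48.9% were called between the clones, 23.9% higher and 24.9% lower in KO1 than in KO2. EIF2AK4, the kinase GCN2 that senses uncharged tRNA, rose in KO1 by 0.35 ± 0.04 (adjusted p = 5.16e-06) and fell in KO2 by 0.25 ± 0.04 (adjusted p = 6.48e-05), and the clones differed by 0.60 ± 0.04 (adjusted p = 3.9e-09). EIF2S1, which encodes the subunit of translation factor eIF2 that these kinases phosphorylate, fell by 0.43 ± 0.04 in KO1 and was at 0.07 in KO2 (adjusted p = 0.203). DDIT4, an inhibitor of mTORC1 signalling, fell by 1.56 ± 0.17 in KO2 (adjusted p = 5e-06) and was at -0.35 ± 0.16 in KO1 (adjusted p = 0.109). In KO1 it passed the threshold without WT replicate 1 (-0.46) or with no filter on low counts (-0.34). ATF5, another factor of this response, fell by 0.79 ± 0.07 in KO2 (adjusted p = 1.41e-07). Named after its values were seen, ATF4 was at 377 ± 7.92 CPM in KO1 and 325 ± 22.2 CPM in KO2, against 344 ± 9.82 CPM in WT, with a log2 change of 0.13 in KO1 (adjusted p = 0.0386) and -0.08 in KO2 (adjusted p = 0.174) and a difference of 0.21 between the clones (adjusted p = 0.0014). The counts of this list moved with single libraries, to 4 higher and 3 lower in KO1 without WT replicate 1. They came to 1 lower in KO1 without WT replicate 2 or 3, KO1 replicate 2 or 3, or KO2 replicate 1 or 2. In KO2 they came to 2 higher without WT replicate 1, WT replicate 3, KO2 replicate 2 or KO2 replicate 3. With the GC trend removed 10 were higher and 1 lower in KO1, and 7 were higher and 7 lower in KO2. A replicate block gave 6 higher and 1 lower in KO1, and a minimum of 1 CPM in 3 libraries gave 2 higher and 6 lower in KO2.

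Cytosolic aminoacyl-tRNA synthetases, which charge tRNA with amino acids, had 4 of 20 genes higher and 7 lower in KO1 (median -0.02) and 5 higher and 4 lower in KO2 (median 0.02). NARS, which charges asparagine, was at 326 ± 14.8 CPM in KO1 and 179 ± 3.82 CPM in KO2, against 261 ± 2.97 CPM in WT (SD, n = 3 each). It rose in KO1 by 0.32 ± 0.04 (adjusted p = 2.38e-05) and fell in KO2 by 0.55 ± 0.04 (adjusted p = 3.63e-08), with a difference of 0.87 ± 0.04 between the clones (adjusted p = 1.47e-10). FARSB, a subunit of the phenylalanine enzyme, rose by 0.65 ± 0.04 in KO2 (adjusted p = 1.1e-08). The gene of the other subunit, FARSA, named after its values were seen, fell by 1.12 ± 0.12 in KO2 (adjusted p = 8.69e-05) and by 0.65 ± 0.12 in KO1 (adjusted p = 0.00332). IARS, for isoleucine, rose by 0.38 ± 0.04 and GARS, for glycine, by 0.29 ± 0.04 in KO2. The count lower in KO1 was 4 without KO1 replicate 3.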

How the data were processed

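The authors deposited raw read counts per gene symbol for each library, whole numbers without normalization. The column headers name HISAT2-aligned reads, per the file headers, and Trim Galore and HISAT2 are named in the submitters' processing notes together with the builds hg38, GRCm38 and mm10, without a role; the read counter, the annotation, the strand setting and all versions: not given in the sources used here. RNA had been extracted with an RNeasy kit and made into TruSeq libraries, per the labels' protocols.

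From these counts, genes were filtered with filterByExpr (17759 kept), scaled by TMM and fitted in edgeR 4.0.16 (R 4.3.3) with 1 mean per group over all 9 libraries, by robust quasi-likelihood, with Benjamini-Hochberg adjustment over all tested genes. The common coefficient of variation was 7.46%. Alternatives were DESeq2 1.42.0, 2 other scalings, 2 other filters, a replicate block, pairs of groups, removal of the GC trend (lowess span 0.3) and leaving out each library. The fit was tested on simulated data.

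Positions, exon lengths and overlaps came from GENCODE 29 (GRCh38), which placed 55842 of 61155 symbols; GC content was known for 97.4% of tested genes. For pathway lists, 18 genes matched by an older symbol. The named pathway genes were up to 4 per list with the smallest p in either clone; others are marked as named after their values were seen. Any 2 libraries of a group differed by more than counting noise (chi-square over its degrees of freedom, 7.53 to 40.5). The members, lists and alternatives were chosen with earlier results of these data known. Floors cover counting error only. Some genes of the lists and of the neighbourhood of GLUL are counted in the totals and not reported here by name.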

Additional observations from a re-analysis of the deposited data

Results flagged for a closer look

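The changes of 2 of the 7 other tested members differed between the clones in edgeR's test of KO1 against KO2. Of all tested genes, 48.9% were called in that comparison, so a difference between the clones is not particular to these members. SLC38A2 differed by 0.86 on the log2 scale, being higher in KO1 and lower in KO2 than in WT in 3 of 3 libraries of each clone. GOT1 differed by -0.40, with its KO2 libraries above and its KO1 libraries below all WT libraries. Its change in KO1 against WT, -0.10, did not pass the threshold in edgeR's test (adjusted p = 0.0555). For GLUL, whose value was -6.51 for KO1 against KO2, every KO1 library lay below and every KO2 library above the WT libraries; that difference was not tested, since the gene was chosen for it.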

How the results depend on the processing

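The counts of called genes stayed within 1.5 times the reported ones in all 17 alternatives, from 4690 to 6943 for KO1 against WT, from 7685 to 9703 for KO2 against WT and from 7595 to 9987 for KO1 against KO2. Of the values for single members and named pathway genes under these alternatives, 1353 kept their direction and side of the threshold, 49 lost the call, 20 gained one and 3 reversed. The 1353 include the values of GLUL, which was not tested and so has no side of the threshold to keep. The reversals came with removal of the GC trend, to 0.13 for SLC1A5 in KO1, 0.05 for SLC1A5 in KO2 and 0.03 for ATF5 in KO1; the cause was not tested.

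In KO1, calls of named pathway genes near the threshold were lost when one or another library was left out, most with folds close to the reported ones. ASL (-0.27) lost its call when WT replicate 1 (-0.23) or 2 (-0.22), KO1 replicate 2 (-0.21) or 3 (-0.22), or KO2 replicate 1 (-0.26) was left out, and came to -0.07 with the GC trend removed. CTH (-0.27) lost its call without WT replicate 2 (-0.24) or KO1 replicate 3 (-0.25). ATF5 (-0.18) lost it with WT replicate 2 (-0.12) or 3 (-0.16), KO1 replicate 2 (-0.13) or 3 (-0.15), or KO2 replicate 1 or 2 (-0.18 each) left out. FARSB (-0.15) lost it without any 1 WT library (-0.13 each), KO1 replicate 1 (-0.10) or 3 (-0.15), and GARS (-0.14) without WT replicate 2 (-0.13) or 3 (-0.11) or KO1 replicate 1 (-0.10) or 3 (-0.13).

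Same-numbered libraries did not pair: 3 of 9 correlations of their deviations from the group means were over 0.1 (range -0.53 to 0.48). With a replicate block, 5544, 8302 and 8240 genes were called in KO1 against WT, KO2 against WT and KO1 against KO2, the KO1 calls of ASNS, ASL and ATF5 were lost (-0.75, -0.26 and -0.18), and GLUD1 was called between the clones (-0.10). Low counts limit the precision of ASNS and PHGDH, at 49 or fewer in every library, and of GLUL in KO1, at 17 or fewer; why ASNS counts are low was not tested.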
